A study of Drosophila melanogaster with 10 samples.

Results

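The nuclear genes for the subunits of the mitochondrial respiratory chain and ATP synthase were followed across 5 kinds of Drosophila melanogaster testis. The members were chosen by gene symbol, as every symbol that begins with ND-, UQCR-, ATPsyn, Sdh followed by A, B, C or D, or COX followed by a digit, leaving out symbols that end in L, L1 or L2, which mark paralogs. This gave 62 genes of the 17412 in the deposited tables. The rule itself uses no measured value, but earlier results of these data were known when the members were chosen. They comprised 33 genes of complex I, 4 of complex II, 6 of complex III, 8 of complex IV and 11 of complex V. In all, 87 symbols began in one of these ways. The 25 left out were 24 paralogs and ND-MNLL, a complex I subunit whose symbol happens to end in L and which was listed at 0 in every library.

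Complexes I to IV of the inner mitochondrial membrane pass electrons from nutrients to oxygen and most of them pump protons, and complex V, the ATP synthase, uses the return flow of protons to make ATP. Complexes I, III, IV and V mix subunits made from the mitochondrial genome with subunits made from nuclear genes, whereas complex II is wholly nuclear and also works in the tricarboxylic acid cycle. In the fly testis, mitochondria fuse after meiosis into the large nebenkern beside each spermatid nucleus and then elongate along the growing tail, and many respiratory chain genes have duplicate copies expressed mainly in the male germ line.

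Total RNA of whole testes was sequenced after removal of ribosomal RNA, with 2 libraries per group and 100 testis pairs from males younger than 2 days behind each library. Wild-type (WT) testes, labelled as holding all stages of male germ cells, came from flies grown at 22°C for 10 days. In 3 genotypes the flies carried an RNA interference construct, bam-Gal4 and UAS-dicer2 (w; B9d1 RNAi, Tektin-C RNAi or Klp59D RNAi; bam-Gal4, UAS-dicer2), and were grown at 22°C for 3 days and then at 30°C for 8 days. The bam-Gal4 driver is active in late dividing spermatogonia and early spermatocytes, so the somatic cells of these testes were not targeted, and extra Dicer-2 strengthens interference. The sa-/- mutant, grown at 22°C for 12 days, lacks a testis form of a TBP-associated factor (TAF), part of the machinery that turns on late spermatocyte and spermatid genes. By the labels, young spermatocytes predominate in B9d1 knockdown (KD) testes, and mature spermatocytes in each of the 3 remaining altered genotypes. The WT flies carried neither the driver nor UAS-dicer2 by their label, so genotype, temperature and cell stage cannot be told apart in a comparison of a knockdown with WT.

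The libraries held 17621525 to 30798942 counts. Between the 2 libraries of a group the counts varied about as far as sampling noise would make them, with a median squared deviation of 1.04 to 1.11 times its expectation against 40.4 to 241 times between groups. They were therefore summed and counted as 1 sample, so that a difference has no replicate check and no p-value is given. B9d1 was at 8.91 and 9.91 scaled counts per 1e6 (CPM) in its own knockdown and at 108 and 109 in WT. In the libraries that carry the Tektin-C KD label (the Tektin-C-labelled pair), Klp59D was at 29.3 and 30.0 CPM, against 332 and 347 in WT, while Tektin-C was at 201 and 204. In those that carry the Klp59D KD label (the Klp59D-labelled pair), Tektin-C was at 12.7 and 11.6 CPM, against 217 and 225 in WT, while Klp59D was at 333 and 337. The targeted genes thus go against these 2 labels, and any direction given for either pair is that of the label only. Levels are CPM scaled by TMM factors, folds are differences of log2 CPM, and intervals are exact 95% intervals that cover counting error only. With library size alone in place of TMM, the median log2 fold against WT over all 13831 genes tested moved from 0.08 to 0.65 in B9d1 KD, from 0.13 to 0.23 in the Tektin-C-labelled pair, from 0.05 to 0.59 in the Klp59D-labelled pair and from 0.02 to 0.78 in the sa mutant, and every member moved with it. Directions of the family are therefore given relative to that median.

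The cell makeup of the testes differed as well. Of 14 measured muscle markers, 12, 11, 11 and 12 were at least 2-fold below WT in B9d1 KD, the Tektin-C-labelled pair, the Klp59D-labelled pair and the sa mutant, and none was above. Their summed level was 3949 to 3966 CPM in WT, 960 to 970 in B9d1 KD, 1956 to 1983 and 1367 to 1390 in the Tektin-C-labelled and Klp59D-labelled pairs, and 969 to 981 in the sa mutant, with no marker at 0. Of 16 measured accessory gland markers, 15 in B9d1 KD and 16 in each of the other 3 altered groups were at least 2-fold above WT, where Acp63F was at 0. The 4 ejaculatory duct and bulb markers summed to 302.9 CPM in WT and 46.3, 50.7, 70.4 and 220.8 in the altered groups. With library size alone, 2 of these were at least 2-fold above WT and 1 below in the Klp59D-labelled pair. Hub and cyst cell markers summed to 223.1 CPM in WT and 125.1, 174.5, 152.1 and 140.3 elsewhere. Early germ line markers summed to 50.3 CPM in WT and 126.1, 106.1, 143.3 and 116.3 elsewhere. Of 8 spermatid markers, 6, 2, 6 and 8 were at least 2-fold below WT in the same order of groups, and of 9 spermatocyte markers 7, 5, 8 and 5 were at least 2-fold above it. Their part in the member values was not tested. In whole testes, fewer cells of a type and less RNA per cell cannot be told apart.

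All 62 members were expressed in all 5 groups. The lowest count of any member in any library was 167, all 62 passed the low-count filter, and the 2 libraries of a group differed by a median of 0.03 and at most 0.18 on the log2 scale. In WT, levels per kilobase of exon ran from 12.1 CPM for ATPsyndelta to 525 CPM for ND-MLRQ, with a median of 99.3. The length is that of all annotated exons of a gene merged, so a rank per kilobase also reflects the annotation. Without division by length the lowest member in WT was UQCR-6.4, at 13.7 CPM. The highest per kilobase after ND-MLRQ were ND-B14.5B at 409 CPM, ATPsynC (the ring subunit of the rotor) at 401, ND-B12 at 392 and COX5A at 376. ND-MLRQ is a small subunit named for complex I but placed in complex IV by later mammalian work. The lowest per kilobase above ATPsyndelta, a central stalk subunit, were ND-B16.6 at 15.7, ND-ASHI at 22.4, SdhC at 24.01 and UQCR-6.4 at 24.4. The median level per kilobase over the members was 87.6 CPM in B9d1 KD, 93.0 in the Tektin-C-labelled pair, 95.4 in the Klp59D-labelled pair and 111 in the sa mutant. Under this scaling the median per kilobase was lowest in B9d1 KD and highest in the sa mutant, a span smaller than that of many single members. Without division by length the lowest median was that of the Tektin-C-labelled pair, at 82.05 CPM, beside 83.6 in B9d1 KD. The sa mutant was again highest, at 104.3 CPM.

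Across the 5 groups, the ratio of the highest to the lowest group had a median of 1.97 over the members under TMM, from 1.15 for ND-B15 to 5.01 for ND-B8. It reached 2 in 27 of 62 members (43.5%) under TMM and in 43 (69.4%) with library size alone. Among the 6950 protein-coding genes with a mean level inside the members' range of 14.7 to 702 CPM, the median ratio was 3.08 and 78.9% reached 2, or 89.4% with library size alone. The 24 paralogs had a median ratio of 9.64 (6.49 with library size alone), and all 24 reached 2 under both. Under TMM 5 members reached 3, namely the accessory subunits ND-B8, ND-AGGG, ND-B14.5A and ND-15 of complex I and UQCR-11 of complex III. With library size alone 22 did, core subunits such as ND-49 and ND-20 among them, and the furthest was ND-AGGG at 5.78. Under TMM the highest group was the sa mutant for 23 members and WT for 20, and the lowest was the Tektin-C-labelled pair for 24. These counts were 49, 3 and 29 with library size alone.

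**Figure D1:**
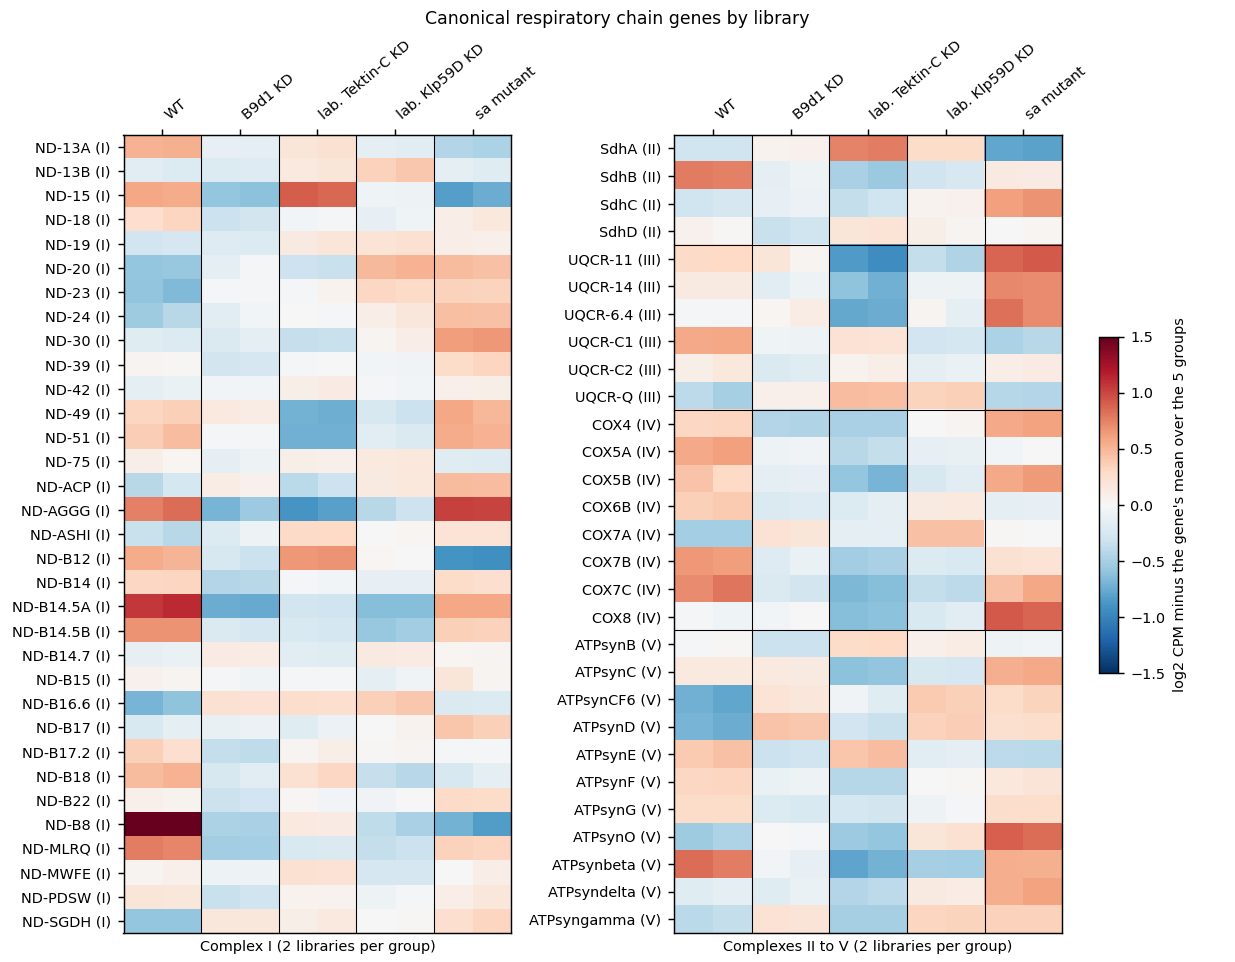
Level of each of the 62 members in each of the 10 libraries, as log2 CPM relative to the member's mean, with rows grouped by complex and 2 columns per group ("lab." stands for labelled). The colour scale ends at 1.5 on either side of the mean; ND-B8 in WT lies beyond it, and the 2 libraries of a group look alike for every member.

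Counts of members 2-fold apart from WT are given beside the share of all genes that were. In B9d1 KD, 1 member was at least 2-fold higher than in WT and 6 were at least 2-fold lower, where 27.3% of all tested genes were higher and 25.7% lower. In the Tektin-C-labelled pair, 1 member was higher and 11 lower, against 21.2% and 17.1% of all genes. In the Klp59D-labelled pair, 4 were higher and 8 lower, against 23.6% and 23.2%. In the sa mutant, 3 were higher and 4 lower, against 26.4% and 27.7%, and leaving out replicate 1 of WT made it 5 higher. Among protein-coding genes of like abundance the shares were 26.3% higher and 20.4% lower in B9d1 KD, 17.4% and 11.7% in the Tektin-C-labelled pair, 20.9% and 17.5% in the Klp59D-labelled pair, and 25.6% and 26.8% in the sa mutant. The share of members at least 2-fold lower in the Tektin-C-labelled pair, 17.7%, was near the 17.1% of all genes. With library size alone, the members at least 2-fold higher and lower were 11 and 2 in B9d1 KD (41.0% and 16.4% of all genes), 3 and 9 in the Tektin-C-labelled pair (23.7% and 15.04%), 15 and 2 in the Klp59D-labelled pair (37.5% and 14.7%) and 25 and 1 in the sa mutant (44.5% and 18.0%). The split between higher and lower thus depends on the scaling for the members as it does for all genes.

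The median log2 fold of the members against WT was -0.27 in B9d1 KD, -0.12 in the Tektin-C-labelled pair, -0.21 in the Klp59D-labelled pair and 0.08 in the sa mutant. Under library size alone these medians were 0.32, -0.01, 0.33 and 0.86, so the sign turned in B9d1 KD and in the Klp59D-labelled pair. Relative to the median of all genes, the members stood 0.34 lower in B9d1 KD, 0.25 and 0.27 lower in the Tektin-C-labelled and Klp59D-labelled pairs, and 0.06 higher in the sa mutant. The same distances by library size alone were 0.33, 0.24 and 0.25 lower, and 0.08 higher. By complex, relative to WT under TMM, the lowest medians were those of complex IV in the 3 knockdowns, at -0.62, -0.89 and -0.43. Scaled by library size alone, they were -0.04, -0.79 and 0.12, so the sign turned in the Klp59D-labelled pair. Under TMM the sa mutant had its highest median in complex V, at 0.41, and its lowest in complex II, at -0.26 (1.19 and 0.51 with library size alone).

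**Figure D2:**
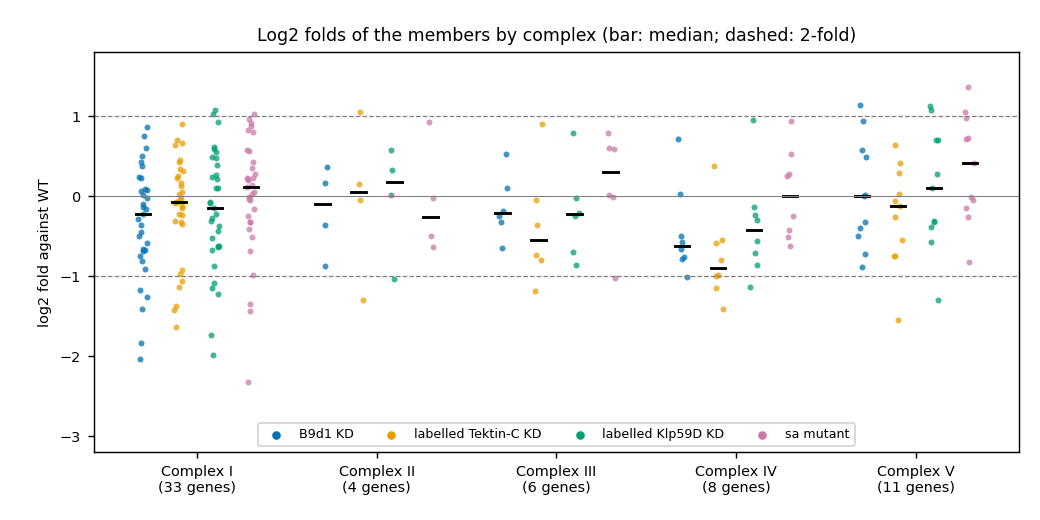
Log2 fold against WT of each member in each altered group, by complex, under TMM scaling; a point is 1 gene from the summed libraries and the dashed lines mark 2-fold in either direction. Most points lie inside the lines, with ND-B8 the lowest in B9d1 KD, in the Klp59D-labelled pair and in the sa mutant; with library size alone all points of an altered group shift up together.

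Complex I takes electrons from NADH. Its members are described here by textbook role, a division made after the values were seen. The 7 members for the nuclear-encoded core, which hold the flavin and iron-sulfur clusters, were ND-75, ND-51, ND-49, ND-30, ND-24, ND-23 and ND-20. Their median log2 fold against WT was 0.01 in B9d1 KD, 0.02 in the Tektin-C-labelled pair, 0.26 in the Klp59D-labelled pair and 0.83 in the sa mutant. For the 26 accessory members it was -0.43, -0.07, -0.25 and 0.00. Under library size alone the medians were 0.60, 0.13, 0.81 and 1.604 for the core and 0.16, 0.04, 0.30 and 0.78 for the accessory members, which turned the sign of the latter in the knockdowns and left them below the core in each of the 4 groups. Under TMM, across the 4 comparisons, ND-49 and ND-51 in the Tektin-C-labelled pair were the only core members called 2-fold or more below WT. The other complex I calls below WT were of accessory members, which made up 26 of the 33 genes of the complex. In the Tektin-C-labelled pair these were ND-AGGG, ND-B8 and ND-B14.5A, of 26 accessory members, beside ND-49 and ND-51 of the 7 core members.

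The core subunits did not move as a block. ND-75, the largest of them, was at 187 and 195 CPM in WT and at 167 and 174 in B9d1 KD, a log2 fold of -0.16, and under TMM lay within 0.25 of WT on the log2 scale in all 4 altered groups. ND-20, which holds the iron-sulfur cluster next to ubiquinone, was at 74.21 and 74.99 CPM in WT and at 101 and 110 in B9d1 KD. It was at 156 and 160 CPM in the Klp59D-labelled pair, 2.12-fold over WT (2.02 to 2.22), and at 155 and 150 in the sa mutant, 2.04-fold over WT (1.95 to 2.14). ND-51, which binds NADH, was at 80.0 and 85.0 CPM in WT, 60.4 and 60.7 in the B9d1 KD pair, 37.5 and 37.4 in the Tektin-C-labelled pair, 54.7 and 53.0 in the Klp59D-labelled pair, and 90.6 and 88.4 in the sa mutant. Its log2 folds against WT were -0.45, -1.14, -0.62 and 0.11 under TMM, and 0.14, -1.03, -0.07 and 0.89 with library size alone, which turned the sign in B9d1 KD. ND-51 and ND-24 sit together in the NADH-oxidising tip of the complex, and their ratio per base of exon, which no scaling factor touches, was 0.964 in WT, 0.545 in B9d1 KD, 0.320 in the Tektin-C-labelled pair, 0.411 in the Klp59D-labelled pair and 0.553 in the sa mutant.

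Among the accessory subunits, ND-B8 was furthest from WT under TMM in B9d1 KD, in the Klp59D-labelled pair and in the sa mutant, at log2 folds that with library size alone were -1.45, -1.44 and -1.55. This gene lies on chromosome arm 2L at 4454626 to 4455207 (dm6, plus strand). It was at 172 and 167 CPM in WT, 41.4 and 41.1 in the B9d1 KD pair, 63.8 and 62.9 in the Tektin-C-labelled pair, 44.4 and 41.3 in the Klp59D-labelled pair, and 35.4 and 32.4 in the sa mutant. WT thus stood above every other group, by 4.10-fold over B9d1 KD (3.91 to 4.31) and by 5.01-fold over the sa mutant (4.74 to 5.31). ND-B15 had the smallest ratio of highest to lowest group under TMM, at 27.6 to 31.7 CPM over the 5 groups. On library size alone that place went to ND-13A, at a ratio of 1.16, and ND-B15 ran from 23.1 to 41.0 counts per 1e6. The ratio of ND-B8 to ND-B15 per base of exon was 5.75 in WT, 1.497 in B9d1 KD, 2.28 in the Tektin-C-labelled pair, 1.61 in the Klp59D-labelled pair and 1.10 in the sa mutant.

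ND-B14.5A, another accessory subunit (X: 2172526 to 2173432), separated the knockdowns from the mutant. It was at 209 and 217 CPM in WT, 59.6 and 59.5 in the B9d1 KD pair, 82.9 and 81.7 in the Tektin-C-labelled pair, 64.4 and 64.3 in the Klp59D-labelled pair, and 149 and 150 in the sa mutant. WT was 3.58-fold over B9d1 KD (3.43 to 3.73), and the sa mutant was 2.52-fold over B9d1 KD (2.41 to 2.62). With library size alone the log2 fold of ND-B14.5A against WT was 0.26 in the sa mutant, then the highest group, and -1.25 in B9d1 KD. ND-AGGG, a small subunit of the membrane arm (3L: 24976254 to 24977118), had 23.0 and 24.3 CPM in WT, 8.40 and 9.32 in the B9d1 KD pair, 7.396 and 7.771 in the Tektin-C-labelled pair, 10.22 and 10.98 in the Klp59D-labelled pair, and 27.8 and 27.5 in the sa mutant. For ND-AGGG the 3 knockdowns lay below both WT and the sa mutant, with WT 2.66-fold over B9d1 KD (2.37 to 2.99). The sa mutant stood 0.22 above WT on the log2 scale under TMM and 1.00 above it with library size alone.

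ND-15 and ND-B12 had their highest level in the Tektin-C-labelled pair. ND-15 was at 96.2 and 94.0 CPM in WT, 42.9 and 41.8 in the B9d1 KD pair, 120 and 116 in the Tektin-C-labelled pair, 61.4 and 60.6 in the Klp59D-labelled pair, and 36.3 and 38.3 in the sa mutant. ND-B12 was at 242 and 234 CPM in WT, 140 and 132 in the B9d1 KD pair, 258 and 263 in the Tektin-C-labelled pair, 169 and 164 in the Klp59D-labelled pair, and 88.3 and 87.3 in the sa mutant. For both genes B9d1 KD and the sa mutant were the lowest. Under TMM, WT was 2.55-fold over the sa mutant for ND-15 (2.40 to 2.70) and 2.71-fold for ND-B12 (2.61 to 2.82). With library size alone neither reached 2-fold there, at log2 folds of -0.57 and -0.66 for the sa mutant against WT. Of the 8 spermatid markers, 2 were at least 2-fold below WT in the Tektin-C-labelled pair, 6 in B9d1 KD, 6 in the Klp59D-labelled pair (4 with library size alone) and 8 in the sa mutant, and their part in these values was not tested. ND-B16.6 stood above WT in all 4 altered groups, from 19.1 and 20.5 CPM in WT to 36.2 and 36.1 in B9d1 KD and 39.6 and 41.0 in the Klp59D-labelled pair.

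In complex II, succinate dehydrogenase, SdhA was above its WT level and SdhB below it in the 3 knockdowns, under TMM and under library size alone. SdhA, the flavoprotein that oxidises succinate (2R: 19391863 to 19395971), was at 367 and 370 CPM in WT, 469 and 476 in the B9d1 KD pair, 760 and 770 in the Tektin-C-labelled pair, 551 and 549 in the Klp59D-labelled pair, and 263 and 259 in the sa mutant. SdhB, its iron-sulfur partner (2R: 6807626 to 6809172), was at 39.0 and 38.3 CPM in WT, 20.5 and 21.5 in the B9d1 KD pair, 16.2 and 15.4 in the Tektin-C-labelled pair, 18.4 and 19.2 in the Klp59D-labelled pair, and 24.8 and 24.7 in the sa mutant. The Tektin-C-labelled pair thus had the highest SdhA and the lowest SdhB, 2.08-fold over WT for SdhA (2.03 to 2.12) and 2.45-fold under WT for SdhB (2.23 to 2.69). Per base of exon, the ratio of SdhA to SdhB was 4.18 and 4.28 in the WT libraries, 10.1 and 9.79 in B9d1 KD, 20.8 and 22.2 in the Tektin-C-labelled pair, 13.3 and 12.7 in the Klp59D-labelled pair, and 4.70 and 4.64 in the sa mutant. In all 3 knockdowns the ratio was above that of WT and of the sa mutant. The membrane anchors differed again. SdhC was 0.92 above WT on the log2 scale in the sa mutant under TMM and between -0.05 and 0.33 in the knockdowns, and SdhD lay between -0.36 and 0.15 in all 4. In the sa mutant SdhA and SdhB were below WT under TMM but 0.28 and 0.13 above it with library size alone.

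Complex III passes electrons from ubiquinol to cytochrome c. UQCR-C1, one of its large core proteins, was at 408 and 411 CPM in WT, 262 and 260 in the B9d1 KD pair, 318 and 317 in the Tektin-C-labelled pair, 225 and 228 in the Klp59D-labelled pair, and 198 and 205 in the sa mutant. WT was 2.03-fold over the sa mutant (1.98 to 2.09) and stood above every other group. The log2 fold in the sa mutant was -0.25 with library size alone. UQCR-C2, the other core protein, lay within 0.32 of WT on the log2 scale under TMM. The ratio of UQCR-C1 to UQCR-C2 per base of exon went from 2.31 in WT to 1.85 in B9d1 KD, 1.86 in the Tektin-C-labelled pair, 1.52 in the Klp59D-labelled pair and 1.15 in the sa mutant. UQCR-11, the acidic hinge protein (3L: 25120709 to 25126171), was at 47.8 and 47.9 CPM in WT, 44.5 and 40.1 in the B9d1 KD pair, 21.6 and 20.5 in the Tektin-C-labelled pair, 30.4 and 28.7 in the Klp59D-labelled pair, while the sa mutant had 71.8 and 73.7. For this gene the sa mutant was highest and the Tektin-C-labelled pair lowest.

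Complex IV, cytochrome c oxidase, hands the electrons to oxygen, and its nuclear subunits surround a catalytic core made in mitochondria. COX4, which contacts that core, was at 142 and 144 CPM in WT, 84.6 and 84.1 in the B9d1 KD pair, 81.9 and 81.8 in the Tektin-C-labelled pair, 114.8 and 117.5 in the Klp59D-labelled pair, and 170 and 175 in the sa mutant. COX5A was at 294 and 304 CPM in WT, 187 and 190 in the B9d1 KD pair, 148 and 154 in the Tektin-C-labelled pair, 182 and 184 in the Klp59D-labelled pair, and 192 and 197 in the sa mutant. Under TMM both genes were lowest in the Tektin-C-labelled pair, while COX4 was highest in the sa mutant and COX5A in WT. COX5A was with library size alone also highest in the sa mutant, 0.15 above WT on the log2 scale. COX7C was the one member of the complex 2-fold below WT in all 3 knockdowns, with 46.6 and 49.7 CPM in WT, 24.5 and 23.4 in the B9d1 KD pair, 17.8 and 18.3 in the Tektin-C-labelled pair, and 22.2 and 21.7 in the Klp59D-labelled pair. In B9d1 KD the fold was 2.01 (1.87 to 2.17), at the edge of the threshold. Scaled by library size alone, no nuclear subunit of the complex was at least 2-fold lower in B9d1 KD or in the Klp59D-labelled pair. In the Tektin-C-labelled pair, COX7B and COX5B were also at least 2-fold lower, COX7B at a log2 fold of -1.14. COX7A went the other way under TMM, at 0.71, 0.37, 0.95 and 0.52 above WT on the log2 scale in the 4 altered groups, and COX8 stood 0.94 above WT in the sa mutant.

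Complex V divides into a catalytic head with a central stalk, a peripheral stalk that holds the head still, and a membrane part. ATPsynbeta, the catalytic subunit (chromosome 4: 1031484 to 1034917), was at 319 and 303 CPM in WT, 174 and 164 in the B9d1 KD pair, 103 and 110 in the Tektin-C-labelled pair, 126 in both libraries of the Klp59D-labelled pair, and 260 and 258 in the sa mutant. ATPsyngamma, the central shaft that turns inside the head, was at 85.8 and 88.5 CPM in WT, 132 and 130 in the B9d1 KD pair, 80.0 and 80.3 in the Tektin-C-labelled pair, 141 and 143 in the Klp59D-labelled pair, and 143 and 144 in the sa mutant. WT was 2.92-fold over the Tektin-C-labelled pair for ATPsynbeta (2.82 to 3.02) and 2.47-fold over the Klp59D-labelled pair (2.39 to 2.55). With library size alone the ATPsynbeta log2 folds against WT were -0.30, -1.44, -0.76 and 0.51, so the sign turned in the sa mutant. The ratio of ATPsynbeta to ATPsyngamma per base of exon was 2.27 and 2.10 in the WT libraries, 0.808 and 0.776 in B9d1 KD, 0.789 and 0.835 in the Tektin-C-labelled pair, 0.547 and 0.537 in the Klp59D-labelled pair, and 1.11 and 1.10 in the sa mutant. The ratio was thus below its WT level in every altered group. The alpha subunit gene blw, which alternates with beta around the head and lies outside the symbol rule, was at 193 CPM in WT and 154 in B9d1 KD, and the ratio of blw to ATPsynbeta went from 0.658 in WT to 0.966.

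The 4 peripheral stalk members had a median log2 fold against WT of 0.71 in B9d1 KD, 0.35 in the Tektin-C-labelled pair, 0.89 in the Klp59D-labelled pair and 1.01 in the sa mutant under TMM. Under TMM every complex V gene at least 2-fold above WT in any of these groups was one of them. By library size alone, 3 of the 4 complex V genes so called in B9d1 KD and in the Klp59D-labelled pair, and 3 of 6 in the sa mutant, were of the peripheral stalk. ATPsynD was at 54.0 and 52.5 CPM in WT and 118 and 116 in B9d1 KD, 2.20-fold over WT (2.08 to 2.33), and was the only member at least 2-fold higher there under TMM (11 were with library size alone). ATPsynO, which joins the stalk to the head, was at 43.4 and 45.5 CPM in WT and 117 and 113 in the sa mutant, 2.57-fold over WT (2.42 to 2.74). ATPsynCF6 was at 36.5 and 34.8 CPM in WT, 78.4 and 76.6 in the Klp59D-labelled pair and 72.3 and 75.5 in the sa mutant, 2.18-fold (2.03 to 2.33) and 2.08-fold (1.94 to 2.23) over WT. ATPsynB, the remaining stalk member, did not follow these. With library size alone its log2 folds were 0.26, 0.40, 0.65 and 0.72, beside medians of 0.65, 0.23, 0.59 and 0.78 for all genes. It was the lowest of the 4 in each altered group except the Tektin-C-labelled pair. The 4 membrane members, among them ATPsynC, had medians of -0.45, -0.65, -0.36 and -0.08 in the same order of groups, with none of the 4 at least 2-fold apart from WT. Scaled by library size alone, these medians were 0.14, -0.54, 0.19 and 0.70 and 1 of the 4, ATPsynC, was at least 2-fold higher in the sa mutant, while those of the peripheral stalk stayed above 0.

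**Figure D3:**
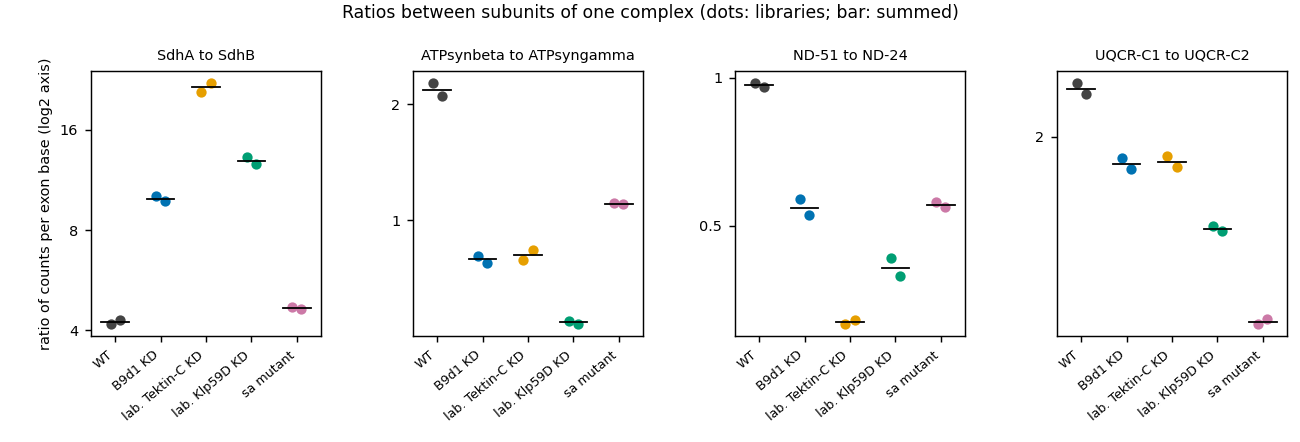
Ratios between subunits of one complex per base of exon, on a log axis, with 1 point per library and 2 libraries in each of the 5 groups. SdhA to SdhB is 4.18 and 4.28 in WT against 9.79 to 22.2 in the knockdown libraries, ATPsynbeta to ATPsyngamma is 2.10 and 2.27 in WT against 0.537 to 1.11 elsewhere, and the 2 libraries of a group nearly coincide.

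The knockdowns were also set against each other, which keeps temperature and driver the same. Between B9d1 KD and the Klp59D-labelled pair no member was 2-fold apart in either direction, where 6.28% of all genes were at least 2-fold higher in B9d1 KD and 7.13% lower. For protein-coding genes of like abundance these shares were smaller, at 3.5% and 2.43%. The member log2 folds ran from -0.58 for ND-20 to 0.51 for UQCR-11. Between the Tektin-C-labelled and Klp59D-labelled pairs no member was 2-fold apart either, against 14.5% of all genes higher and 6.75% lower, and the members ran from -0.83 to 0.95. Protein-coding genes of like abundance had 11.3% higher and 2.13% lower. In that comparison 7 members were, by library size alone, at least 2-fold lower in the Tektin-C-labelled pair, where 18.7% of all genes were. Between B9d1 KD and the Tektin-C-labelled pair, ND-15 was 2.79-fold lower in B9d1 KD (2.66 to 2.93) and UQCR-11 was 2.00-fold higher (1.86 to 2.16), against 19.7% of all genes lower and 14.6% higher. Genes of like abundance had 17.8% lower and 13.3% higher. There 1 member was lower and 11 higher with library size alone, against 10.98% and 29.2%. The call of UQCR-11 was lost without replicate 1 of B9d1 KD, where no member was higher, and likewise without replicate 2 of the Tektin-C-labelled pair. The members' medians were -0.15, -0.19 and 0.00 in these comparisons, in that order, under TMM. By library size alone they were -0.12, -0.63 and 0.47. The markers of other cells differed between the knockdowns too. All 16 accessory gland markers were at least 2-fold lower in B9d1 KD and in the Tektin-C-labelled pair than in the Klp59D-labelled pair, with summed levels of 520.5, 545.5 and 3020 CPM. Of 8 spermatid markers, 7 were at least 2-fold lower in B9d1 KD and in the Klp59D-labelled pair than in the Tektin-C-labelled pair, with summed levels of 6070, 6757 and 20610 CPM (6 and 5 of 8 with library size alone). Their part in the member values was not tested.

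Against the sa mutant, B9d1 KD had 3 members at least 2-fold lower and none higher, where 16.1% of all genes were lower and 23.9% higher. For protein-coding genes of like abundance the shares were 9.7% lower and 23.6% higher. The 3 members were ND-AGGG, 3.11-fold lower (2.81 to 3.45), ND-B14.5A, and COX4, 2.04-fold lower (1.97 to 2.12). The median over the members was -0.35, and 0.40 below the median of all genes under TMM as well as with library size alone. Of the 62 members, 13 were above the level of the sa mutant under TMM and 8 with library size alone. With library size alone 8 members were at least 2-fold lower and none higher, against 20.9% of all genes lower and 20.5% higher. B9d1 KD and the sa mutant differ in stage by their labels, and also in temperature and driver, and these cannot be told apart here. The summed level of the muscle markers was 965.4 CPM in B9d1 KD and 974.6 in the sa mutant, that of the accessory gland markers 520.5 and 1353 (14 of 16 lower in B9d1 KD), that of the spermatid markers 6070 and 1254 (8 of 8 higher), and that of the spermatocyte markers 2567 and 1108 (4 of 9 higher and 1 lower). Their part in the member values was not tested.

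The members' share of all counts, which uses no scaling factor, was 0.623% and 0.624% in the WT libraries, 0.775% and 0.776% in B9d1 KD, 0.585% and 0.591% in the Tektin-C-labelled pair, 0.802% and 0.809% in the Klp59D-labelled pair, and 1.05% and 1.06% in the sa mutant. By share the sa mutant stood highest and the Tektin-C-labelled pair lowest. This order depends on the scaling: as summed CPM under TMM the members stood at 8245 in WT, 8133 in the sa mutant, 7285 in the Klp59D-labelled pair, 7220 in the Tektin-C-labelled pair and 6835 in B9d1 KD, with WT highest and B9d1 KD lowest. The mitochondrial genome's 13 protein genes took 7.49% of counts in WT, 1.75% in B9d1 KD, 2.21% in the Tektin-C-labelled pair, 2.74% in the Klp59D-labelled pair and 7.54% in the sa mutant. Per count of a nuclear member there were 12.0 mitochondrial counts in WT, 2.26 in B9d1 KD, 3.75 in the Tektin-C-labelled pair, 3.41 in the Klp59D-labelled pair and 7.17 in the sa mutant. The partners of the same complexes encoded by the 2 genomes therefore stood in different proportions in every group. Against WT, 13, 12, 12 and 3 of the 13 mitochondrial genes were at least 2-fold lower in the 4 altered groups, and none was higher. Their median log2 fold was -2.76, -2.04, -2.18 and -0.36, or -2.17, -1.93, -1.63 and 0.41 with library size alone, which turned the sign in the sa mutant and left none of the 13 lower there. mt:CoI, for the catalytic subunit of complex IV, was at 26650 CPM in WT, 4433 in B9d1 KD, 7921 in the Tektin-C-labelled pair, 8383 in the Klp59D-labelled pair and 12580 in the sa mutant. Its level per base was 3.55-fold lower relative to COX4 in B9d1 KD than in WT.

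**Figure D4:**
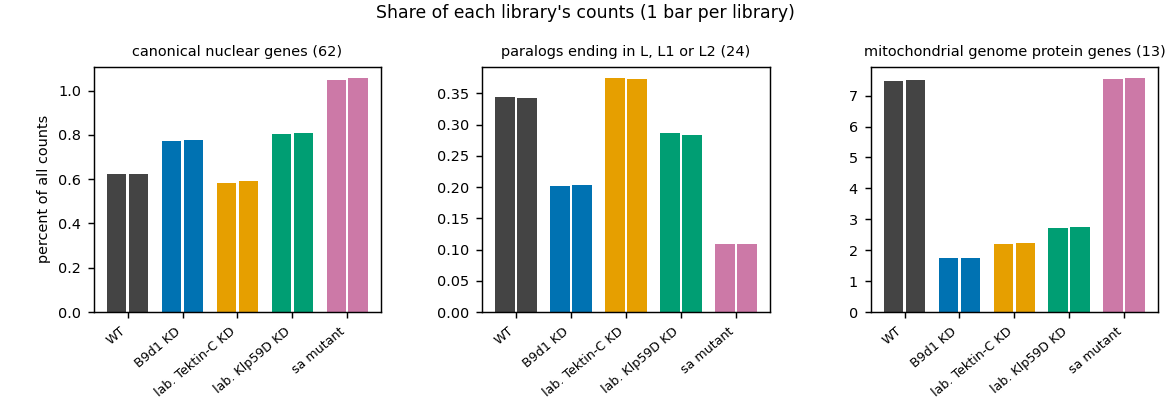
Share of all counts, in percent, taken by the 62 nuclear members, by the 24 paralogs and by the 13 mitochondrial genome protein genes, with 1 bar per library. The nuclear members range from 0.585% to 1.06%, the mitochondrial genes stand at 7.49% in WT, 1.75% in B9d1 KD, and again 7.54% in the sa mutant, and the paralogs are lowest in the sa mutant.

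Of the 24 paralogs kept out of the family by the L endings, 14 were at least 2-fold below WT in B9d1 KD, 2 in the Tektin-C-labelled pair, 7 in the Klp59D-labelled pair and 18 in the sa mutant, with median log2 folds of -1.03, 0.20, -0.48 and -3.11, or -0.45, 0.30, 0.07 and -2.33 with library size alone, which turned the sign in the Klp59D-labelled pair. Those above WT numbered 2, 5, 4 and 1. The lower and higher counts were 10, 2, 6 and 15 and 4, 5, 6 and 2 with library size alone. For COX4, the paralog COX4L carried 11.1 times the level of COX4 per base of exon in WT, 4.06 times in B9d1 KD, 9.78 times in the Tektin-C-labelled pair, 3.64 times in the Klp59D-labelled pair and 0.764 times in the sa mutant. COX7AL stood to COX7A at 2.92 in WT, 0.210 in B9d1 KD, 0.677 in the Tektin-C-labelled pair, 0.307 in the Klp59D-labelled pair and 0.0945 in the sa mutant. SdhAL stood to SdhA at 0.647 in WT and 0.0757 in the sa mutant. Paralog counts per member count were 0.551 in WT, 0.262 in B9d1 KD, 0.635 in the Tektin-C-labelled pair, 0.354 in the Klp59D-labelled pair and 0.104 in the sa mutant. Between B9d1 KD and the sa mutant, 18 of 24 paralogs were at least 2-fold higher in B9d1 KD and none lower, while the members had none higher and 3 lower (17 of 24 paralogs higher and 8 members lower with library size alone). The reads of a member and its paralog could be mixed by the counting where their sequences are alike, which cannot be checked in the count tables.

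**Figure D5:**
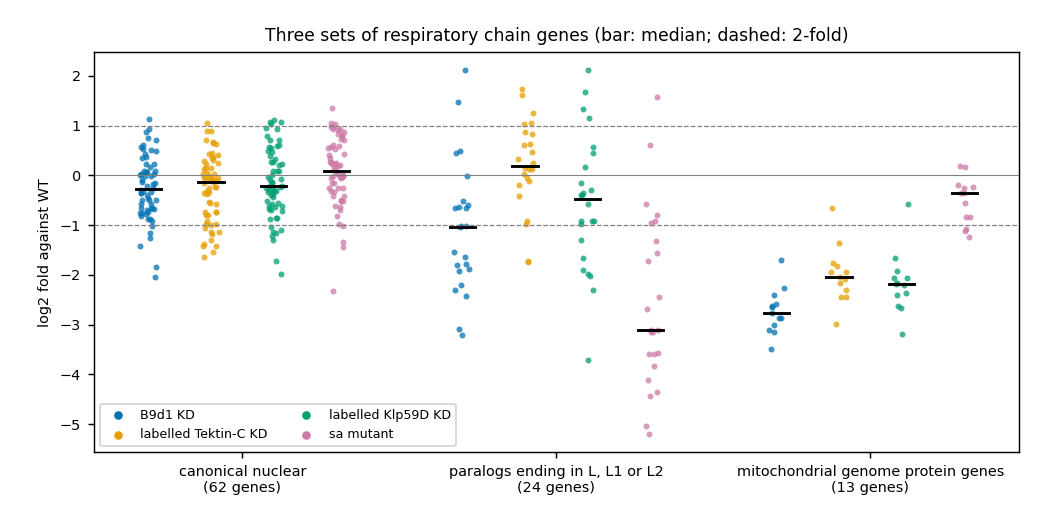
Log2 fold against WT in each altered group for the 62 nuclear members, the 24 paralogs and the 13 protein genes of the mitochondrial genome, under TMM scaling; each point is 1 gene and the bar is the median. The member medians lie between -0.27 and 0.08 (between -0.01 and 0.86 with library size alone, which turns the sign in B9d1 KD and the Klp59D-labelled pair), the paralog median is -3.11 in the sa mutant (-2.33 with library size alone), and the mitochondrial median is -2.76 in B9d1 KD (-2.17 with library size alone).

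Other genes of mitochondrial respiration were described from lists, whose counts stand beside the shares of all genes given above for each group (25.7%, 17.1%, 23.2% and 27.7% lower and 27.3%, 21.2%, 23.6% and 26.4% higher under TMM). Of 6 measured subunits outside the symbol rule (RFeSP, Cyt-c1, cype, levy, blw and sun), 2 were at least 2-fold below WT in B9d1 KD, 1 in each of the Tektin-C-labelled and Klp59D-labelled pairs and none in the sa mutant, and none was above under TMM. With library size alone 1 was lower in B9d1 KD and 1 in the Tektin-C-labelled pair, and 1 was higher in the Klp59D-labelled pair and 2 in the sa mutant. Cyt-c1, the heme subunit of complex III, was at 138 CPM in WT and 44.9 in B9d1 KD. Of 13 measured assembly factors, 3, 1, 3 and 5 were higher and 2, 2, 2 and 1 lower under TMM, or 8, 3, 9 and 7 higher and 1, 2, 1 and 1 lower with library size alone. Cox10, which acts in the synthesis of the heme of cytochrome c oxidase, was at 59.4 CPM in WT and 55.4 in the sa mutant but at 14.5 in B9d1 KD, while Cox11, which delivers copper to the same enzyme, was at 5.17 CPM in WT against 15.4 in B9d1 KD and 22.4 in the sa mutant. The 12 measured genes of the tricarboxylic acid cycle and pyruvate dehydrogenase had 7, 7, 6 and 3 at least 2-fold below WT, none above, and medians of log2 fold of -1.07, -1.08, -1.02 and -0.69 under TMM, or -0.49, -0.97, -0.47 and 0.09 with library size alone, which turned the sign in the sa mutant and left 2, 6, 1 and 2 at least 2-fold lower. Of 7 measured regulators of mitochondrial genes, 6, 1, 6 and 6 were at least 2-fold above WT and none below (7, 1, 7 and 7 above with library size alone). PolrMT, the mitochondrial RNA polymerase, was at 22.5 CPM in WT, 124 in B9d1 KD, 75.5 in the Tektin-C-labelled pair, 107 in the Klp59D-labelled pair and 147 in the sa mutant. In B9d1 KD the polymerase was thus above WT while all 13 mitochondrial protein genes were below it.

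The position of the members was read from the annotation. Of 62, 11 lay on the X, 12 on 2L, 11 on 2R, 13 on 3L, 13 on 3R and 2 on chromosome 4. The 13 members on 3R had medians against WT of 0.16, 0.02, 0.33 and 0.52 in the 4 altered groups, beside 0.09, 0.16, 0.07 and 0.04 for all 3286 tested genes on 3R. The 12 on 2L had -0.58, -0.44, -0.44 and -0.03, beside 0.07, 0.20, 0.01 and -0.03 for all 2677 on 2L. The pair on chromosome 4, ND-49 and ATPsynbeta, were both at least 2-fold below WT in the Tektin-C-labelled pair; the median of the 95 tested genes on that chromosome was -0.14 there. By library size alone the 3R medians were 0.75, 0.13, 0.88 and 1.30 and the 2L medians 0.01, -0.33, 0.10 and 0.75. These groupings were looked at after the values were seen. Of the 62 members, 32 share exon bases with another annotated gene, 6 on the same strand and 28 on the other, and since the strand setting of the counting is not given in the sources used here, their values are uncertain. UQCR-14 is the clearest case, with all 523 of its exon bases shared with a gene on the other strand. SdhB shares 129 of its bases on the other strand and ATPsynbeta shares 191, while ND-AGGG, UQCR-11, ND-49 and ATPsyngamma share none there.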

How the data were processed

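Raw counts of reads per FlyBase gene, whole numbers, are what the authors deposited for the 10 libraries; nothing in the values shows a normalization. The tools named are STAR 2.5.1b and Trim Galore 0.4.1, and the build is dm6, per the submitters' processing notes. Which program counted the reads, with which strand setting, annotation and handling of multi-mapped reads, is not given in the sources used here. Ensembl release 115 (same assembly) supplied symbols and coordinates and named 17138 of the 17412 identifiers. Groups follow the labels.

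For genes with 50 to 5000 counts, the 2 libraries of a group were compared against a binomial range. Outside the 95% range lay 6.09% to 6.49% of genes, and whether they came from separate flies is not in the labels. Counts were summed, so the spread between animals is unknown. Same-numbered libraries of different groups deviated together (r = 0.123 to 0.203 for 6953 genes, over all pairs of groups), so the numbers pair the libraries, by this check of the data and not by the labels. The 13831 genes that passed filterByExpr in edgeR 4.0.16 were scaled by TMM (factors 0.756 for WT, 1.13 for B9d1 KD, 0.815 for the Tektin-C-labelled pair, 1.11 for the Klp59D-labelled pair, 1.29 for the sa mutant), and log2 CPM took a prior count of 2. A gene was called at 2-fold. Fold intervals are exact binomial (Clopper-Pearson) intervals and cover counting error only, since reads without molecular identifiers are not independent molecules. The fold steps were tried on simulated counts with rises and falls in balance and no other difference between groups. That setting cannot test the scaling where many genes differ, as they do here. Alternatives tried were RLE factors, library size alone, no filter, a filter of CPM over 5 in 2 libraries, structural RNA and mitochondrial genes left out, each library left out, edgeR's quasi-likelihood fit with and without a replicate block, and DESeq2 1.42.0. The share of counts without spermatid markers, the genes of like abundance and the grouping of subunits by role were added after seeing the data.

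Members and lists were chosen with earlier results of these data known. Named in each comparison were the 5 members of highest and the 5 of lowest fold and fixed core subunits; any other name was chosen after its values were seen. List genes that matched no symbol were not analysed here.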

Additional observations from a re-analysis of the deposited data

How the results depend on the processing

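Of 212 alternative values for the counts of members called and for the shares of counts, 181 stayed within 1.5 times the reported count or, for a share, within the spread of the libraries, and 31 moved further. With library size alone, members at least 2-fold higher and lower than in WT were 11 and 2 in B9d1 KD, 15 and 2 in the Klp59D-labelled pair and 25 and 1 in the sa mutant, and 3 were higher in the Tektin-C-labelled pair. B9d1 KD then had 11 members above the Tektin-C-labelled pair (29.2% of all genes were) and 8 below the sa mutant (20.9% of all genes). The Tektin-C-labelled pair had 7 below the Klp59D-labelled pair (18.7% of all genes). With RLE factors, 1 member was higher in the sa mutant than in WT, 0 in B9d1 KD than in the Tektin-C-labelled pair, and 1 in the Tektin-C-labelled than in the Klp59D-labelled pair. The single member higher in B9d1 KD than in the Tektin-C-labelled pair, UQCR-11, also dropped to 0 with the stricter filter, with structural RNA and mitochondrial genes left out, and with DESeq2, which gave 2 lower there and 1 higher in the Tektin-C-labelled pair than in the Klp59D-labelled pair. Leaving out 1 library at a time gave 0 to 1 for that count, and 2 to 5 members higher in the sa mutant than in WT. The cause was not tested. With structural RNA and the mitochondrial genome left out of the total, the members' share was 0.693% in WT, 0.798% in B9d1 KD, 0.610% in the Tektin-C-labelled pair, 0.841% in the Klp59D-labelled pair and 1.18% in the sa mutant; without the spermatid markers too it was 0.711%, 0.804%, 0.620%, 0.848% and 1.18%. The fit with the replicate block changed no count by over 1.5 times, with 5 members lower in B9d1 KD than in WT in place of 6 and 10 in the Tektin-C-labelled pair in place of 11. The search for promoter motifs among the members was not run, since no promoter sequences were used here. Depth limits no member, since the lowest count was 167, but with 1 sample per group no difference carries a replicate error.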
